A study of Mus musculus with 8 samples.

Results

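The lens genes described here are 10: 7 crystallin genes of the alpha and beta families, the gamma family member Crygs, the transcription factor gene Foxe3 and the water channel gene Mip. They were chosen as genes that the embryonic lens switches on near the stage sampled, and each was found by the RefSeq transcript given for its probe. Every one of the 10 had exactly 1 probe among the 34967 gene probes of the array, which name 13971 genes. RNA of 8 single whole mouse embryos at E11.5, in midgestation, was measured on single-colour CodeLink arrays, 1 embryo per array. The parents carried an allele that lowers expression of Ott1, now named Rbm15, which codes for an RNA-binding protein. Embryos 11 and 13 were genotyped as wild type, embryos 3, 10 and 15 as heterozygous and embryos 2, 7 and 16 as homozygous for the allele. No probe was matched to Rbm15 itself, so the lowered expression that the labels name was not checked on these arrays. The labels give no strain, sex, litter or body size.

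The lens forms when surface ectoderm over the optic cup thickens into a placode, folds inward and closes into a vesicle. Cells at the back of the vesicle then elongate into primary fibre cells, stop dividing and fill with crystallins, the soluble proteins that give the lens its refractive power. Alpha crystallins are small heat shock proteins that start early, while beta and gamma crystallins mark the elongating fibres. Foxe3 keeps the front epithelium dividing, and Mip, also called aquaporin 0, is a channel of the fibre membrane. Large Maf factors, with Sox and Pax6 proteins, drive crystallin promoters in this tissue. The lens is a minute part of a whole embryo, and in such samples fewer lens cells and less RNA per cell cannot be told apart.

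The promoters are printed because they show what most of these genes share outside the arrays. Windows of the 250 bases before the annotated start were read from RefSeq, build GRCm38.p6, for 9 of the 10 genes. Cryab was not matched. A half-site of the Maf response element, TGCTGA, was searched on both strands, so that it also reads TCAGCA. It was present in 8 of the 9 windows, all but that of Foxe3, and in 16.1% of 32851 windows of the same length. The following 5 windows belong to the tested members that were matched and to the divergent neighbours Cryba4 and Crybb1, with the Maf half-site in capitals.
Cryaa, chr17:31677681-31677930, plus strand: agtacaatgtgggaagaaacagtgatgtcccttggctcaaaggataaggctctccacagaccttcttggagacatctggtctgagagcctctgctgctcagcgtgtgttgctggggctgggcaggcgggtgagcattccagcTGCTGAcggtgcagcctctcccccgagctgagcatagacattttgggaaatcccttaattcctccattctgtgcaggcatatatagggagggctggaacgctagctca
Cryba1, chr11:77725294-77725543, minus strand: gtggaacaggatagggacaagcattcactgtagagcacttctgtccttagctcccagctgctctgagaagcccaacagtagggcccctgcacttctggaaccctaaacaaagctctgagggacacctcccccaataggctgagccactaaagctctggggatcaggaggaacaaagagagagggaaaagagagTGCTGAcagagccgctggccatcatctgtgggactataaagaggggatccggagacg
Crybb3, chr5:113081585-113081834, minus strand: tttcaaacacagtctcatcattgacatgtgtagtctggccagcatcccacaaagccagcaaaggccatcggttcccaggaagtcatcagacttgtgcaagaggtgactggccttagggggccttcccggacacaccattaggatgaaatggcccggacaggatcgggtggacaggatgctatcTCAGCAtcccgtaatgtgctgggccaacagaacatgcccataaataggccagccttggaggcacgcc
Cryba4, chr5:112252519-112252768, minus strand: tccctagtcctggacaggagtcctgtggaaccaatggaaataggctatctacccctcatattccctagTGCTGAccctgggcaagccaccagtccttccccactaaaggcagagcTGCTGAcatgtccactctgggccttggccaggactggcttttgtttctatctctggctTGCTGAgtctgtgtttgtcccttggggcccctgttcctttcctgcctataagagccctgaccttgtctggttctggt
Crybb1, chr5:112255570-112255819, plus strand: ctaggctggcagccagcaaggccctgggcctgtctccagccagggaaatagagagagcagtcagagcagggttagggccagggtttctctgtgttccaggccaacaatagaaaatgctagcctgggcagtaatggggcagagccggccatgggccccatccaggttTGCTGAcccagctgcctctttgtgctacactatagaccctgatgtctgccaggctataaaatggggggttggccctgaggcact
In these 5 windows the leftmost base of a match lay at -108 for Cryaa, -57 for Cryba1, -67 for Crybb3 and -84 for Crybb1, counted back from -1 at the base before the start. Cryba4 held 3 matches, at -182, -135 and -77. The other windows with a match placed it at -149 for Cryba2, -132 for Mip and -200 for Crygs. A TATAAA core lay in 3 windows (Cryba1, Crybb1 and Crygs) and in 12.4% of all windows. The ACAATG core of Sox sites was found in 2, those of Cryaa and Crygs, against 10.7%. No member window held GAANNTTC, the core that heat shock factors bind, which 6.7% of windows did. These matches describe letters in the windows, not bound sites.

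Values are log2 of quantile-normalized, background-corrected intensity, floored at 2.17. A level on 1 probe is not set against the level on another, since probes differ in how well they bind. The scanner software marks each spot as above background or not. Of the 10 lens genes, 3 were above background on all 8 arrays (Cryab, Cryba1 and Crybb3), 4 on 1 to 7 arrays and 3 on none (Crybb1, Crygs and Mip). Over all gene probes, 54.7% were above background on all 8 arrays and 15.6% on none. A gene was tested where its probe was above background in every embryo of at least 1 genotype. That left 4 of the 10 lens genes, or 40%, against 66.9% of gene probes. Cryaa entered the tests through wild type alone, the genotype in which it was higher, so its difference is open to that selection.

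Before normalization the 3 homozygous arrays were brighter than the others, with median intensities of 61.45 in embryo 2, 61.52 in embryo 7 and 87.93 in embryo 16 against 48.28 to 57.63. Array brightness and homozygosity cannot be told apart here. Embryo 16 also had the most gene probes above background, 26619 against 22526 to 23721, and the most spots set missing, 1634 against 206 to 616. The dimmest probes called above background on that array sat near 3.65 on the log2 scale (1st percentile), against 4.63 to 4.85 on the 7 others. A call of above background therefore meant a lower level in embryo 16, and differences that rest on this embryo are given with and without it.

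The alpha crystallins are chaperones. Cryab codes for αB-crystallin, which heart and skeletal muscle also make. Its log2 level was 6.30 and 7.43 in wild type embryos 11 and 13. It was 6.47, 7.86 and 5.66 in heterozygous embryos 3, 10 and 15, and 6.97, 6.90 and 5.02 in homozygous embryos 2, 7 and 16. The highest value was in heterozygous embryo 10 and the lowest in homozygous embryo 16, and the 3 genotypes overlapped throughout. The genotype means were 6.86 ± 0.80 (SD, n = 2), 6.66 ± 1.11 (n = 3) and 6.30 ± 1.11 (n = 3). Highest and lowest embryo differed 7.12-fold. Before normalization the intensity ran from 41.65 in embryo 15 to 202.3 in embryo 10. Embryo 16 was then at 52.2, so it was the lowest only after normalization. Homozygous minus other embryos was -0.44, with a 95% interval from -1.79 to 0.91 (limma, adjusted p = 0.696). Without embryo 16 the difference was 0.20, with the sign turned.

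Cryaa codes for αA-crystallin, the more lens-restricted of the pair. Its level was 4.67 and 5.47 in wild type embryos 11 and 13. It was 4.93, 4.46 and 4.81 in heterozygous embryos 3, 10 and 15, and 4.35, 4.69 and 4.31 in homozygous embryos 2, 7 and 16. It was not above background in embryos 10 and 2. Wild type embryo 13 stood highest and the remaining 7 lay within 4.31 to 4.93, with homozygous embryo 7 above wild type embryo 11. The difference homozygous minus other was -0.42 (95% interval -0.90 to 0.07, limma, adjusted p = 0.302), and -0.35 without embryo 16.

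**Figure D1:**
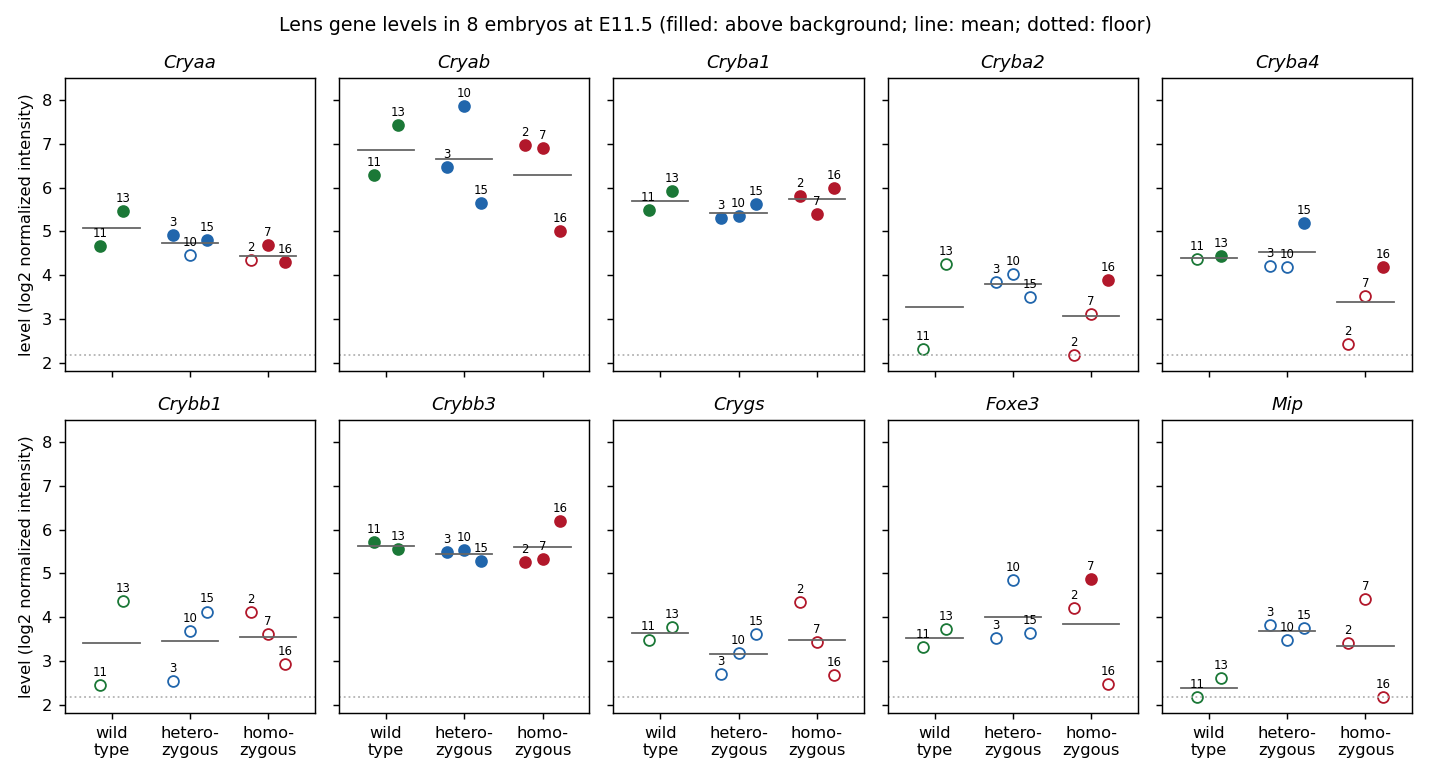
Log2 normalized intensity of the 10 lens genes in each embryo by genotype, filled where the probe was above background, with the genotype mean as a line and the floor of 2.17 dotted. Cryab spans 5.02 to 7.86 with the genotypes interleaved, while Cryba1 and Crybb3 stay within 5.27 to 6.2.

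The beta crystallins are structural proteins of the fibre cell. Cryba1, which codes for the βA3 and βA1 chains, was above background in every embryo. Its level was 5.49 and 5.92 in wild type embryos 11 and 13, 5.31, 5.36 and 5.62 in heterozygous embryos 3, 10 and 15, and 5.82, 5.39 and 5.99 in homozygous embryos 2, 7 and 16. Low and high values occurred in each genotype, and the extremes were 1.60-fold apart. Homozygous minus other embryos was 0.19 (95% interval -0.21 to 0.60, limma, adjusted p = 0.553), and 0.07 without embryo 16.

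Crybb3 codes for the βB3 chain. It was measured at 5.72 and 5.55 in wild type embryos 11 and 13, at 5.49, 5.54 and 5.28 in heterozygous embryos 3, 10 and 15, and at 5.27, 5.34 and 6.2 in homozygous embryos 2, 7 and 16. Embryo 16 stood highest and the other homozygous embryos were among the 3 lowest. The difference of 0.09 (95% interval -0.40 to 0.57, limma, adjusted p = 0.844) became -0.21 without embryo 16.

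Cryba4, Crybb1 and Cryba2 code for further beta chains, and none of their probes was above background on all arrays of a genotype. Cryba4 was above background in wild type embryo 13 at 4.44, heterozygous embryo 15 at 5.20 and homozygous embryo 16 at 4.19. Its other 5 values, between 2.42 and 4.36, were not. Cryba2 was above background in embryo 16 alone, at 3.88, under the 4.25 that was not in wild type embryo 13. Crybb1, the divergent neighbour of Cryba4, was not above background on any array, with values between 2.45 and 4.37. No fold is given for these genes, since neither side of any comparison was fully measured.

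Crygs, the γS-crystallin gene, which is known best from later fibre cells, was not above background in any embryo, with values from 2.68 to 4.35. Mip was not either, from the floor of 2.17 in embryos 11 and 16 to 4.42 in embryo 7. Foxe3 was above background in homozygous embryo 7 alone, at 4.88. Heterozygous embryo 10 gave 4.86 on the same probe without passing. The number of lens genes above background was 4 and 5 in wild type, 4, 3 and 5 in heterozygous and 3, 5 and 6 in homozygous embryos, the 6 being embryo 16. A level not above background is not absence of the RNA.

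None of the 4 tested lens genes passed the adjusted p of 0.05 in any comparison of genotypes. For homozygous against the 5 other embryos that is 0 of 4, where 0.107% of all tested probes passed (limma). At an unadjusted p under 0.05 it was also 0 of 4, where 20% of probes fell below it. The median difference of the 4 was -0.17, or -0.07 without embryo 16, against -0.06 over all tested probes, with 2 negative and 2 positive. Without Cryaa, the 3 members above background on all 8 arrays had a median of 0.09, with 1 negative. A share of 60.2% of all probes was negative.

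Homozygous against wild type gave differences of -0.62 for Cryaa, -0.56 for Cryab, 0.03 for Cryba1 and -0.03 for Crybb3. None passed, where 0.0342% of probes did. Cryaa was the 1 gene with an unadjusted p under 0.05 (limma, adjusted p = 0.316, 95% interval -1.22 to -0.02), and 15.3% of probes fell below that value. Its difference was between the means 4.45 ± 0.21 (n = 3) and 5.07 ± 0.56 (n = 2), and rested on which wild type embryo was kept: it was -0.22 without embryo 13 and -1.015 without embryo 11. Heterozygous minus wild type was -0.34 for Cryaa, -0.20 for Cryab, -0.27 for Cryba1 and -0.20 for Crybb3, and 0% of probes passed (2.3% at an unadjusted p under 0.05, none of them a lens gene). With an embryo left out, the Cryba1 value ran from -0.49 (without 11) to -0.06 (without 13) and the Crybb3 value from -0.29 (without 13) to -0.11 (without 11), or -0.12 without 15. Homozygous minus heterozygous was -0.28, -0.36, 0.30 and 0.16 in the same order, where 0.0214% of probes passed and no lens gene did. At an unadjusted p under 0.05 that was again 0 of 4, where 11.6% of probes fell below it. These comparisons share embryos, so they are not separate evidence. The intervals were wide, and for Cryab homozygous minus heterozygous reached from -1.99 to 1.28.

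**Figure D2:**
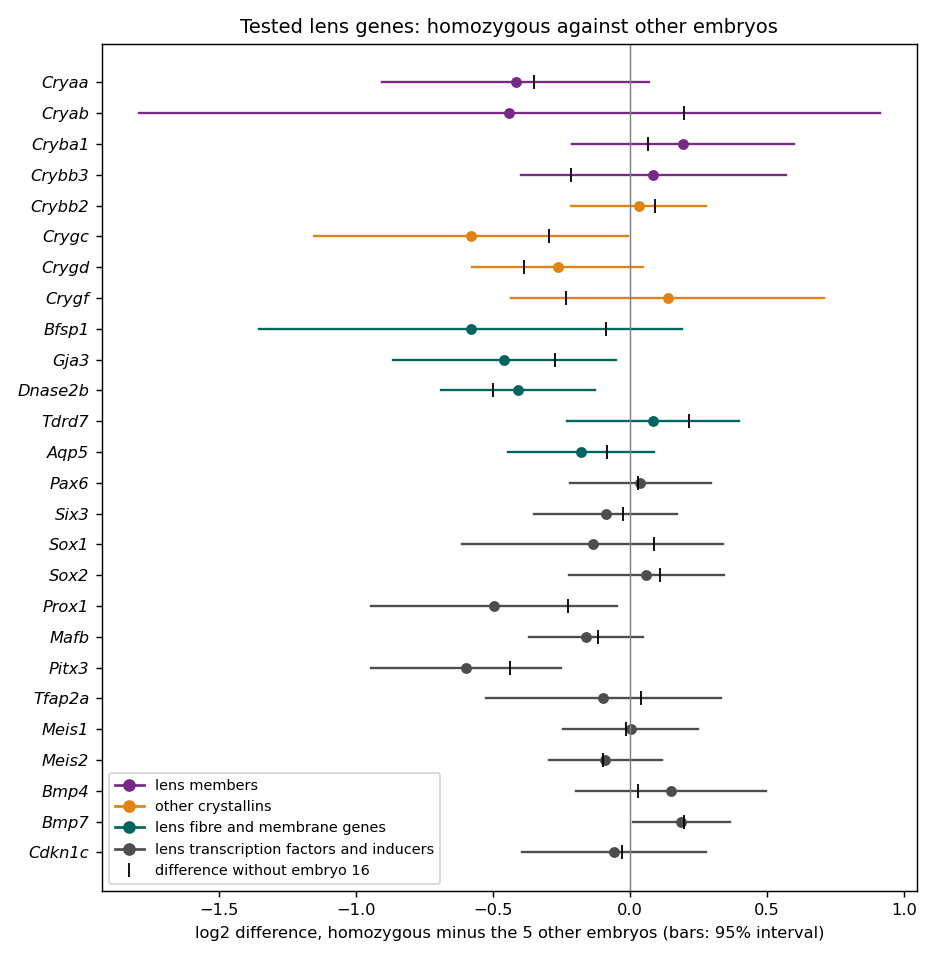
Log2 difference, homozygous minus the 5 other embryos, with its 95% interval for the tested lens genes and tested genes of 3 related lens lists, and a black tick for the difference without embryo 16. The intervals of all 4 members cross 0, and the ticks of Cryab (0.20) and Crybb3 (-0.21) fall on the other side of 0 from their dots.

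The lens genes did not follow each other across embryos. Over the 8 embryos, Pearson's r between the levels of 2 members was 0.28 for Cryaa and Cryab, 0.01 for Cryaa and Cryba1 and -0.25 for Cryaa and Crybb3. It was -0.33 for Cryab and Cryba1, -0.51 for Cryab and Crybb3 and 0.41 for Cryba1 and Crybb3. These are descriptions of 8 points that share their arrays. Embryo 16 was the lowest or the highest for each of the 4 members, so the size and sign of r may rest on it. The values of r without embryo 16 are not given here. As stage markers the members gave no common order of the embryos on the normalized scale: embryo 16 was lowest for Cryab and Cryaa and highest for Cryba1 and Crybb3. The low ranks of embryo 16 arose with normalization of this brightest array. Before it, Cryaa was at 35.98 in embryo 16, under embryo 13 alone (41.72), and Cryab was not lowest there. Cryba1 (89.44) and Crybb3 (99.37) were highest in embryo 16 before normalization too. The mean level of the 4 tested members, each centred on its own mean, was -0.07 and 0.48 in wild type, -0.06, 0.19 and -0.27 in heterozygous and -0.01, -0.03 and -0.23 in homozygous embryos. The named probes most like the mean profile of the 3 members above background everywhere, among 10780 candidates over 8 embryos, were Polrmt (r = 0.948), Gch1 (0.937), Grk6 (0.929), Zfp341 (0.921) and Mdp1 (0.92). That profile mostly follows Cryab, which varies most of the 3.

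Other crystallins, those outside the 10, had a probe for 6 of 8 genes, and 4 were tested. None passed, 1 had an unadjusted p under 0.05, where 20% of all tested probes did, and the median difference was -0.12. The gamma crystallin genes are near copies of each other, and whether their probes tell them apart was not checked. Crygd, which codes for γD-crystallin, was 8.22 and 8.17 in wild type, 8.04 and 8.38 in heterozygous embryos 3 and 15 (missing in 10), and 7.77, 7.86 and 8.18 in homozygous embryos. The difference was -0.26 (limma, adjusted p = 0.306), and homozygous embryo 16 lay among the other embryos. Crygf was between 6.79 and 7.33 in 7 embryos and 8.0 in embryo 16. Crybb2, the gene of the βB2 chain, held between 6.25 and 6.59. For Crygc, named after its values were seen, 2 probes disagreed: one was above background on all 8 arrays with a difference of -0.58 (limma, adjusted p = 0.246, -0.30 without embryo 16), the other on 1.

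Genes of the fibre cell and its membrane had a probe for 8 of 10, with 6 tested, 5 of them negative and none passing. Over all tested probes 60.2% were negative. At an unadjusted p under 0.05 there were 2, both lower, where 20% of all tested probes fell below it. The median difference of the 6 genes was -0.40, and -0.09 without embryo 16. Of the 6, 2 entered the tests through wild type alone, Bfsp1 and Gja3. Bfsp1 did so by its level, as Cryaa did, so its difference is open to the same selection. Gja3 did so because its spots in embryos 3 and 2 were missing, and it was above background wherever it had a value. Among the 4 above background on all 8 arrays, 3 were negative and the median was -0.29. Dnase2b, the nuclease that degrades fibre cell nuclei, was 7.42 and 7.45 in wild type, 7.15, 7.33 and 7.5 in heterozygous and 6.74, 7.0 and 7.15 in homozygous embryos. Homozygous embryo 16 and heterozygous embryo 3 were both 7.15 after rounding. Before rounding embryo 16 was the lower, so homozygous and other embryos did not overlap, but only by a margin lost in rounding. Before normalization embryo 16, on the brightest array, was at 166.7, above embryo 3 at 145.4. The share of all tested probes with such a gap is not given here. The Dnase2b difference, homozygous minus other, was -0.41 (limma, adjusted p = 0.166). Aqp5, a water channel, ran from 6.34 to 6.82 and Tdrd7, an RNA granule protein of fibre cells, from 6.21 to 6.71. The other genes of this and the next lists that are not among the 3 highest of their list were chosen after their values were seen. The connexin gene Gja3 differed by -0.46 and Bfsp1, which codes for the beaded filament protein filensin, by -0.58. Gja3 was missing in heterozygous embryo 3 and homozygous embryo 2, so it rests on 2 homozygous embryos, and on embryo 7 alone without embryo 16. Without embryo 16 the differences became -0.28 and -0.09, and neither passed with it (limma, lowest adjusted p = 0.218).

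Transcription factors and inducers of the lens were mostly measured: 13 of 14 genes with a probe were tested, 8 were negative, and the median difference was -0.09. None passed, and 3 had an unadjusted p under 0.05, 2 lower and 1 higher, where 20% of all tested probes did. The 3 highest were Meis1 (11.01 to 11.43), Cdkn1c (10.90 to 11.54) and Six3 (10.32 to 10.67). Pax6, the master regulator of the eye, ran from 9.41 to 9.86. These factors are also made outside the lens, in brain and other tissues. Pitx3, which the early lens needs, was 6.77 and 6.77 in wild type, 6.61, 6.58 and 7.03 in heterozygous and 6.27, 6.35 and 5.83 in homozygous embryos. The 3 homozygous values lay below the 5 others, and the difference of -0.60 (-0.44 without embryo 16) did not pass the adjusted threshold (limma, adjusted p = 0.139). The share of all tested probes whose homozygous values lie apart from the others is not given here, so such a gap only describes the values. Prox1, the factor that drives fibre elongation, differed by -0.50 (limma, adjusted p = 0.22), and by -0.23 without embryo 16. The higher one was Bmp7, a growth factor gene of lens induction, at 8.32 and 8.46 in wild type, 8.35, 8.41 and 8.39 in heterozygous and 8.57, 8.59 and 8.55 in homozygous embryos. All 3 homozygous values lay above the 5 others, and the difference was 0.19 (limma, adjusted p = 0.234), but -0.03 with median scaling and -0.06 in the deposited table.

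Of the neighbouring eye tissues, the retina and optic cup list had 9 of 13 genes tested, 4 negative, a median of 0.04 and none passing. At an unadjusted p under 0.05 there were 3, 2 lower and 1 higher, where 20% of all tested probes fell below it. Through wild type alone 2 of the 9 had entered, and 1 of these was among the 2 lower genes. Its mean was highest in wild type, so its difference is open to that selection. Otx2, an early factor of the eye field and forebrain, was 9.49 and 9.34 in wild type, 9.3, 9.65 and 9.37 in heterozygous and 9.8, 9.62 and 9.7 in homozygous embryos. Its difference was 0.28 (limma, adjusted p = 0.21), but -0.03 in the deposited table. Lhx2 lay between 8.15 and 9.24, with its lowest value in embryo 16. Fgf15, also among the 3 highest of the list, lay between 8.14 and 9.68, with its highest value in embryo 16. Its difference was 0.47 (limma, adjusted p = 0.343), and 0.13 without embryo 16. Vax2, a factor of the ventral optic cup, was named after its values were seen. It had a difference of -0.68, and -0.50 without embryo 16 (limma, adjusted p = 0.123 with it). The pigment epithelium and melanin list had 4 of 8 tested, all 4 negative, with a median of -0.32 and none passing. Over all tested probes 60.2% were negative. At an unadjusted p under 0.05 there was 1, Slc45a2, where 20% of all tested probes fell below it. Tyrp1, 1 of the 4, entered through wild type alone, where its mean was highest. Pmel differed by -0.28, Dct by -0.37 and Slc45a2 by -0.58 (limma, lowest adjusted p = 0.163). Without embryo 16 these were -0.20, -0.27 and -0.38, and Pmel was -0.47 without heterozygous embryo 10. Dct was missing in embryo 13. Sources of Cryab outside the lens were looked at as lists. Heart and muscle genes had 12 of 13 tested, 4 negative and 8 positive, with a median of 0.05. Of the 12, 2 had an unadjusted p under 0.05, both lower, where 20% of all tested probes fell below it. These 2, Myog and Tnnt3, are also in the midgestation list below. The 6 small heat shock protein genes had 2 negative and a median of 0.07, and Hspb2, Hspb3 and Hspb7 are in the heart and muscle list too. None passed in either list, and the part of heart or muscle RNA in the Cryab level was not tested.

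A list of genes that rise in midgestation in other tissues stood beside the lens genes. It is not independent evidence, since the pattern in it was known from earlier work on these arrays. Of its 10 tested genes 9 were negative, none passed, and 8 had an unadjusted p under 0.05, all lower, where 13.4% of all probes were lower by that rule. The median difference was -0.69, and -0.65 without embryo 16. Alb, the albumin gene of the fetal liver, was 8.30 and 8.96 in wild type, 7.61, 6.23 and 8.14 in heterozygous and 6.71, 6.45 and 5.4 in homozygous embryos. Heterozygous embryo 10 lay among the homozygous values. Ttr, which codes for transthyretin, was 10.33 and 10.71, then 9.97, 9.94 and 10.59, then 9.24, 9.23 and 8.67 in the same order. All 3 homozygous values lay below the 5 others, a pattern whose share among all tested probes is not given here. Its difference was -1.26 (limma, adjusted p = 0.0855). Myog, a muscle differentiation factor, differed by -1.09. Alb, Ttr and Myog are not among the 3 highest of the list and were named after their values were seen. Those 3 are Gap43, of growing axons, which differed by -0.31, Afp by -0.84 and Stmn2 by -0.57 (limma, lowest adjusted p = 0.194). The same embryo means on the centred scale were 0.38 and 0.68 in wild type, 0.14, -0.30 and 0.51 in heterozygous and -0.28, -0.41 and -0.72 in homozygous embryos. On that scale the list set all homozygous embryos below 4 of the 5 others and close to or below embryo 10, and the lens members did not.

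**Figure D3:**
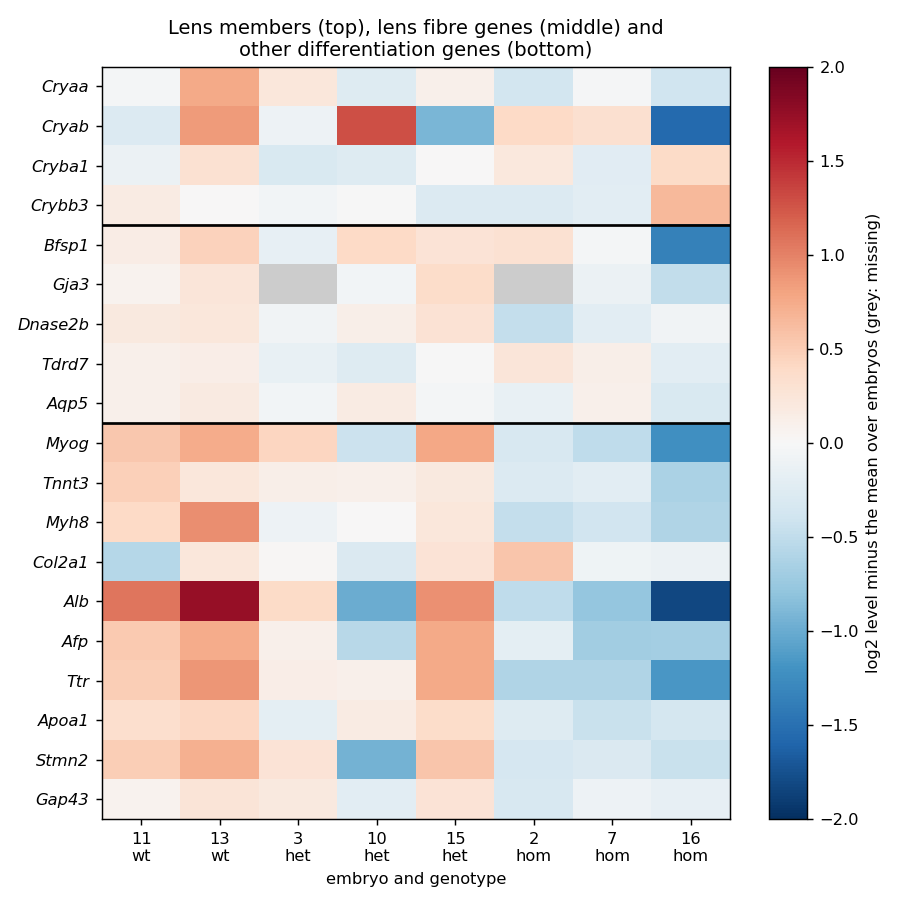
Log2 level minus the mean over embryos for the 4 tested lens genes (top), tested fibre genes (middle) and the tested midgestation genes of other tissues (bottom), by embryo, grey where missing. The columns of embryos 2, 7 and 16 are mostly blue in the bottom block (Alb 6.71, 6.45 and 5.4), while the top block has red and blue in each of them.

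Cryab was the member that differed most between embryos of 1 genotype. Its SD between embryos within genotypes was 1.05 on the log2 scale, at the 99.2 percentile of 21788 tested probes without a missing value. Among 3663 probes whose mean level lay within 0.5 of it, 23 were more spread, and their median SD was 0.23. For the other tested members the SD was 0.32 for Cryaa, 0.26 for Cryba1 and 0.34 for Crybb3, at percentiles 30.7, 38.5 and 61.4 among probes of like level. The lowest heterozygous Cryab value, 5.66, and the highest, 7.86, came from embryos 15 and 10.

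**Figure D4:**
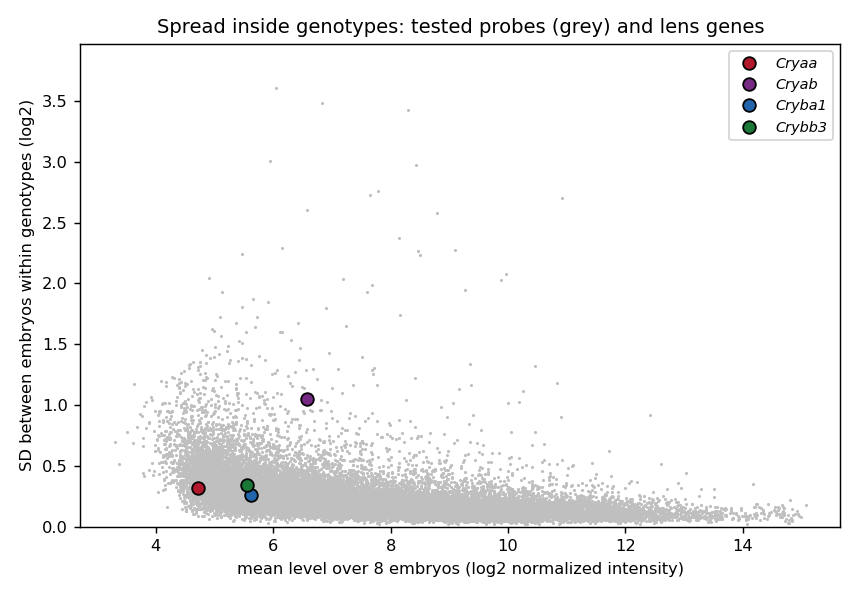
SD between embryos within genotypes against mean log2 level, for tested probes without a missing value (grey) and 4 lens genes (coloured). Cryab, at 1.05, lies above nearly all probes of its level, and Cryaa (0.32), Cryba1 (0.26) and Crybb3 (0.34) lie inside the cloud.

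Cryab lies on chromosome 9, back to back with Hspb2, another small heat shock protein gene. The following was looked for after the values were seen and has no test. Among the 20 nearest measured neighbours, 10 on each side, 4 had an r above 0.8 with Cryab over the 8 embryos, or 20%, against 294 of 10838 named tested probes, or 2.71%. Without embryo 16 it was also 4 of 20, against 1.13%, though not the same 4: Plet1 rose from 0.698 to 0.83 and Dlat fell to 0.781. These counts take positive r only, and the neighbour Il18 had r = -0.51, or -0.807 without embryo 16. Alg9, a mannosyltransferase gene, had r = 0.955 (0.937 without embryo 16) and Pts, of tetrahydrobiopterin synthesis, 0.941 (0.931 without it). Alg9 was 5.67 and 6.62 in wild type, 6.29, 6.81 and 5.19 in heterozygous and 6.52, 6.40 and 5.12 in homozygous embryos. Pts was 9.61 and 10.66, then 10.16, 10.61 and 9.49, then 10.11, 10.17 and 9.38. As for Cryab, embryos 13 and 10 were the 2 highest and embryos 11, 15 and 16 the 3 lowest in both. Pih1d2 (0.885) and Dlat (0.884), which codes for a subunit of pyruvate dehydrogenase, were alike too, and Pih1d2 was at 0.804 without embryo 16. Hspb2, the next gene, was not: its r was 0.102, with levels of 8.82 and 8.23, then 8.29, 9.05 and 8.81, then 8.82, 8.66 and 8.58. Over the whole array, 4 of the 25 named probes most like Cryab were on chromosome 9, or 16%, where 5.7% of named tested probes are. The most alike of all was Plppr4, on chromosome 3, with r = 0.986.

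**Figure D5:**
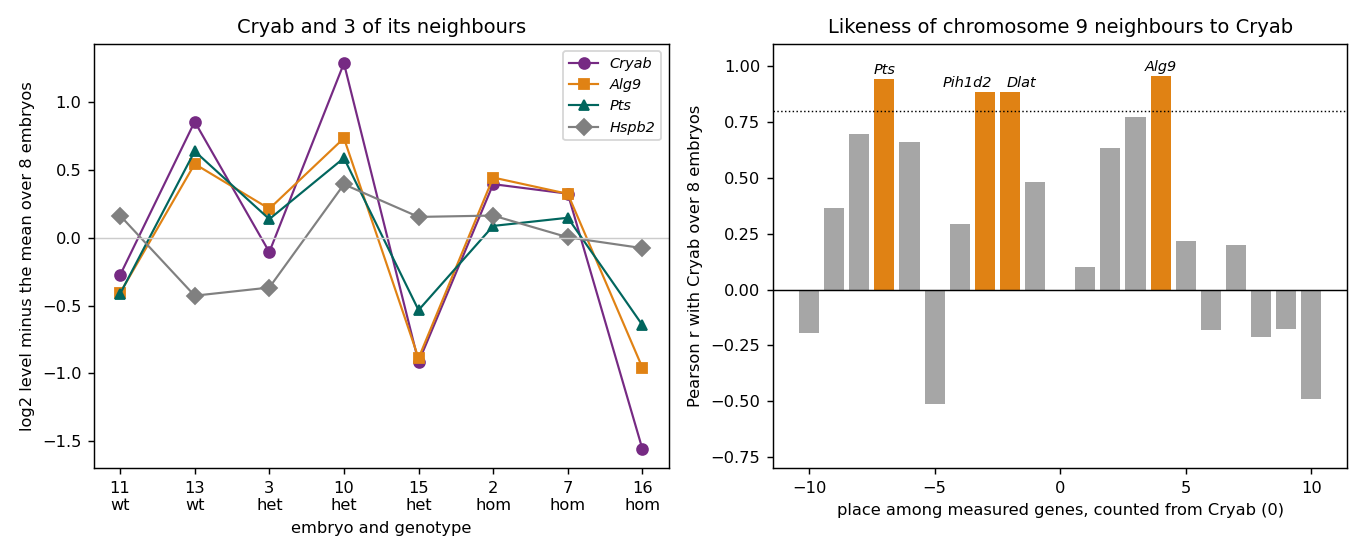
Left, log2 level minus the mean over 8 embryos for Cryab, Alg9, Pts and Hspb2 in each embryo (lines only join the points of a gene). Right, Pearson's r with Cryab over the 8 embryos for its 10 nearest measured neighbours on each side on chromosome 9, in gene order, with those above 0.8 in orange: Pts 0.941, Pih1d2 0.885, Dlat 0.884 and Alg9 0.955.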

How the data were processed

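Per the file headers, each deposited array file holds an intensity per spot, from which the scanner software had subtracted the median of the local background. Which software that was is not given in the sources used here. The authors' deposited value table holds this intensity divided by a single factor for each array (48.6 to 88.5), and differed from the array files by at most 5e-08.

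Control spots were left out, and spots the software marked as faulty were set missing. Intensities of 34967 gene probes were quantile normalized with limma 3.58.1 in R 4.3.3, floored at the 5th percentile (4.50) and put on the log2 scale. A probe was tested if at least 1 genotype had it above background throughout (23389 probes). limma's lmFit and eBayes gave two-sided p-values with Benjamini-Hochberg adjustment over all of them. Pairwise comparisons came from a model of 3 genotype means, and a second model set homozygous against the 5 other embryos. The code was tested on simulated data. The number of arrays limits the precision.

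The 10 members, the lists and the tests were chosen with earlier results of these data known. By rule, all members are named in every comparison, with up to 3 genes of highest mean per list, any list gene that passes, and the 5 most alike probes. The heart and muscle and small heat shock lists were given by counts and medians, without their highest genes. Where a gene had 2 probes, the probe of higher mean stood for it. Names came from RefSeq (1 symbol for 14763 gene probes, none for 20204). As alternatives, other scalings (median, cyclic loess, the deposited table), normexp, a lower floor, other filters, keeping marked spots, fitting 2 genotypes alone and leaving out single embryos were tried. Some list genes are not reported here by name.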

Additional observations from a re-analysis of the deposited data

Results flagged for a closer look

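Among the 5 embryos that are not homozygous, 52 genes were looked at for an embryo far from the others, and 5 showed one. Chance alone gives about 1 in 20. Cryba4 was 5.20 in heterozygous embryo 15 against 4.18 to 4.44 in the rest, and Foxe3 was 4.86 in heterozygous embryo 10 against 3.32 to 3.72, without being above background. In wild type embryo 13, Crygc was 5.70 against 4.85 to 5.09, and Poglut3, a neighbour of Cryab, was 4.96 against 5.30 to 5.4. Myog was 6.99 in heterozygous embryo 10 against 7.85 to 8.20.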

How the results depend on the processing

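No lens gene passed in any comparison under any alternative that was run, and 7 of the 16 member differences kept their sign throughout. Counts of all probes past the threshold moved more. Homozygous against others, 25 probes, became 39 with cyclic loess, 45 with the deposited table, 85 with normexp, 6 with no filter and 50 among probes above background on all 8 arrays, and 5 to 189 with an embryo left out (189 without 7, 44 without 10, 14 without 3, 6 without 11, 5 without 13 or 15). Homozygous against wild type, 8, became 27 with median scaling and with the deposited table, 20 with cyclic loess, 36 with normexp, 5 with the lower floor or with marked spots kept, 4 with no filter and 0 in a fit of only those groups, and 0 to 16 with an embryo left out (16 without 7 or 16, 5 without 15, 4 without 3, 1 without 13, 0 without 11). Heterozygous against wild type, 0, became 2 with median scaling and with the deposited table and 1 with cyclic loess, and 0 to 2 with an embryo left out (2 without 10). Homozygous against heterozygous, 5, became 10 with median scaling, 9 with cyclic loess, 12 with the deposited table and 11 with normexp, and 4 to 24 with an embryo left out (24 without 7, 9 without 10 or 16, 8 without 2). Of the calls in homozygous against others, 28% were higher, and 46.2% with cyclic loess and 51.8% with normexp. The median of all probes in that comparison, -0.06, was -0.22 with median scaling and -0.25 with the deposited table. The cause of these shifts was not tested.

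Homozygous minus wild type turned for Cryba1 to -0.016 with the deposited table and to -0.0073 with marked spots kept, and for Crybb3 to 0.0498 with cyclic loess. Homozygous minus other turned for Bmp7 to -0.0274 with median scaling and -0.0611 with the deposited table, and for Otx2 to -0.0256 with the deposited table. With an embryo left out, homozygous minus other ranged from -0.78 to 0.20 for Cryab and from -0.21 to 0.25 for Crybb3. Homozygous minus wild type ranged from -1.13 to 0.077 for Cryab, -0.18 to 0.24 for Cryba1 and -0.33 to 0.13 for Crybb3. Heterozygous minus wild type ranged from -0.73 to 0.0599 for Cryaa and -0.80 to 0.36 for Cryab. Homozygous minus heterozygous ranged from -0.86 to 0.28 for Cryab and -0.13 to 0.33 for Crybb3. Differences that kept their sign ranged, for Cryaa, from -0.54 to -0.27 (homozygous minus other), -1.015 to -0.22 (minus wild type) and -0.42 to -0.19 (minus heterozygous), and for Cryba1 from 0.07 to 0.37 (homozygous minus other) and 0.18 to 0.48 (minus heterozygous). Ttr passed with the deposited table (limma, adjusted p = 0.0483) and with normexp (0.0298), within a range up to 0.243. Slide as a block was not run, since every array has a number of its own. No paired analysis was possible because the embryo numbers are not shared between genotypes.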
